A study of Mus musculus with 9 samples.

Results

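The miRNA profile of MIN6 cells from the Bioo Scientific NEXTflex V2 library preparation (NF) was compared here with that from the Illumina TruSeq preparation (TS). MIN6 is a mouse insulinoma line that resembles pancreatic beta cells. The comparison took the single library labelled NEXTFlex, replicate 6, sequenced on the HiSeq (NF-HiSeq), and all 3 libraries labelled TruSeq, replicates 1 to 3, sequenced on the GAIIx (TS-GAIIx), which makes 4 of the 9 libraries of the series. All were made from total RNA of MIN6 cells grown, with no treatment named, in medium with 25 mM glucose and 10% heat-inactivated serum. Values of 5 other libraries are set beside these below: 3 of MIN6 by the Illumina v1.5 preparation (v1.5-GAIIx), and 1 TruSeq and 1 NEXTflex library of the same liver RNA, from 1 young adult C57BL/6J female mouse that had been injected with saline as a control and fasted. NF-HiSeq was made from RNA that had also been used for a TruSeq library on the HiSeq, which was not analysed here. The library preparation was not the only thing that differed between NF-HiSeq and TS-GAIIx: RNA, platform, sequencing facility and sequencing date all differed with it, so their parts in any value below cannot be told apart. The study names the Norgen kit for RNA extraction at UNC and TRIzol at NIH. TS-GAIIx was sequenced at NIH, and the HiSeq TruSeq library of the NF-HiSeq RNA at UNC. By these sites extraction differed too, although the method of each library is not listed, and its part cannot be told apart either. NF-HiSeq has no replicate.

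A miRNA is a short RNA cut from a hairpin precursor. It guides the silencing complex to messenger RNAs that pair with its seed, bases 2 to 8, and each arm of the hairpin (5p and 3p) can give a mature miRNA. Before small RNAs can be sequenced, an adapter must be ligated to each end, and ligases act unequally on different RNA ends. TruSeq uses adapters of a fixed sequence. NEXTflex V2 uses pools of adapters with random bases at the ends that are joined. In beta cells miR-375 and miR-7 restrain insulin secretion, and let-7 miRNAs act on glucose metabolism and on the timing of differentiation.

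Abundance was measured at each 5′ start in reads-per-million-mapped units (RPMM), the deposited counts scaled to the mapped reads of the library. A start is the reference 5′ end of a mature miRNA, or, for a 5′-shifted isomiR, an end shifted by the number of bases in brackets, where plus is downstream. Of 322 named starts, 274 had at least 100 RPMM in at least 1 of the 4 libraries (208 reference and 66 isomiR starts) and are called highly expressed. The limit was met in both preparations by 145 of them, only in TS-GAIIx by 69 and only in NF-HiSeq by 60, and a start that met it on 1 side alone had to differ to some extent. The deposited counts of the TS-GAIIx libraries summed to 6923460, 7137973 and 12458630 and those of NF-HiSeq to 25638871, so that 1 read was worth less in NF-HiSeq. Named starts took 69.1%, 72.5% and 72.1% of the mapped reads in TS-GAIIx and 85.5% in NF-HiSeq.

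The sequences on which the results turn are shown 5′ to 3′ from RefSeq (GRCm38.p6), with the seed in capitals. The first set was more abundant in NF-HiSeq, by 2.01-fold for let-7i-5p up to 275-fold for miR-7a-5p: the miR-7 pair and 4 let-7 miRNAs, each group with 1 seed, the miR-17 seed group, and miR-741-3p.
miR-7a-5p: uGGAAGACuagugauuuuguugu
miR-7b-5p: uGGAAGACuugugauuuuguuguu
let-7b-5p: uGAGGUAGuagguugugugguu
let-7c-5p: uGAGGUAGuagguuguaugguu
let-7g-5p: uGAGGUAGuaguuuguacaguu
let-7i-5p: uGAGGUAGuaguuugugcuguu
miR-20a-5p: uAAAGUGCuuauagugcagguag
miR-93-5p: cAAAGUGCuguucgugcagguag
miR-106b-5p: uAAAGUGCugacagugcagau
miR-741-3p: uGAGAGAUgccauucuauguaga
The second set was more than 10-fold more abundant in TS-GAIIx. miR-27a-3p and miR-27b-3p share a seed, and the others have each their own.
miR-22-3p: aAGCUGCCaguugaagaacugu
miR-27b-3p: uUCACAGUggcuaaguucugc
miR-27a-3p: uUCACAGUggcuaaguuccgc
miR-191-5p: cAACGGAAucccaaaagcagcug
miR-127-3p: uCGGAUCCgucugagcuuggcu
miR-183-5p: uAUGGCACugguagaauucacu
miR-879-5p: aGAGGCUUauagcucuaagcc
miR-434-3p: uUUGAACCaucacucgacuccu
miR-666-5p: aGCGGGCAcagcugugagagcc
miR-671-3p: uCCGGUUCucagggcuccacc
In GRCm38.p6 the mature miR-7a-5p lies at chr7:78888295-78888317 (plus strand) and chr13:58392841-58392863 (minus strand), the second of them in an intron of Hnrnpk, and miR-7b-5p at chr17:56243017-56243040 (plus strand). miR-22-3p lies at chr11:75463772-75463793 (plus strand), in an exon of the host transcript Mir22hg, and miR-27b-3p at chr13:63300760-63300780 (plus strand), in an exon of 2010111I01Rik. miR-191-5p lies at chr9:108568325-108568347 (plus strand) and miR-127-3p at chr12:109592888-109592909 (plus strand). The GENCODE M21 annotation has no gene other than the miRNA on the strand of miR-127-3p at that place.

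NF-HiSeq and TS-GAIIx gave different profiles of the same cell line. Of the 274 highly expressed starts, 261 (95.3%) differed at an adjusted p under 0.05 by the quasi-likelihood test of edgeR, adjusted after Benjamini and Hochberg. Those higher in NF-HiSeq made up 45.6% of all tested, and 136 (49.6%) were lower. The spread in this test comes from the 3 TS-GAIIx libraries alone, whose median coefficient of variation was 4.99%, and NF-HiSeq is assumed to vary as they do. With so little spread a 1.12-fold difference could be called, so the size of a difference separates the miRNAs better than the call does. An exact permutation test of 1 library against 3 has only 4 arrangements and cannot give a p below 0.25.

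By size, 70 starts (25.5%) differed by more than 10-fold between NF-HiSeq and the mean of TS-GAIIx, with 1 RPMM added to both as in every fold below except those given as at least, 34 of them higher in NF-HiSeq (12.4% of all tested) and 36 lower (13.1%). More than 5-fold differences were found in 106, with 51 higher (18.6% of all tested) and 55 lower (20.1%). The median difference between the preparations was 3.50-fold in either direction, where the highest TS-GAIIx library exceeded the lowest by a median of 1.10-fold. Among the 145 starts that met the limit in both preparations, which were free to be equal, 16 differed by more than 10-fold (6 higher in NF-HiSeq and 10 lower). The value in NF-HiSeq lay within the range of the 3 TS-GAIIx libraries for 3 starts, miR-340-3p, miR-423-5p and miR-455-5p, and outside it for 98.9%.

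**Figure D1:**
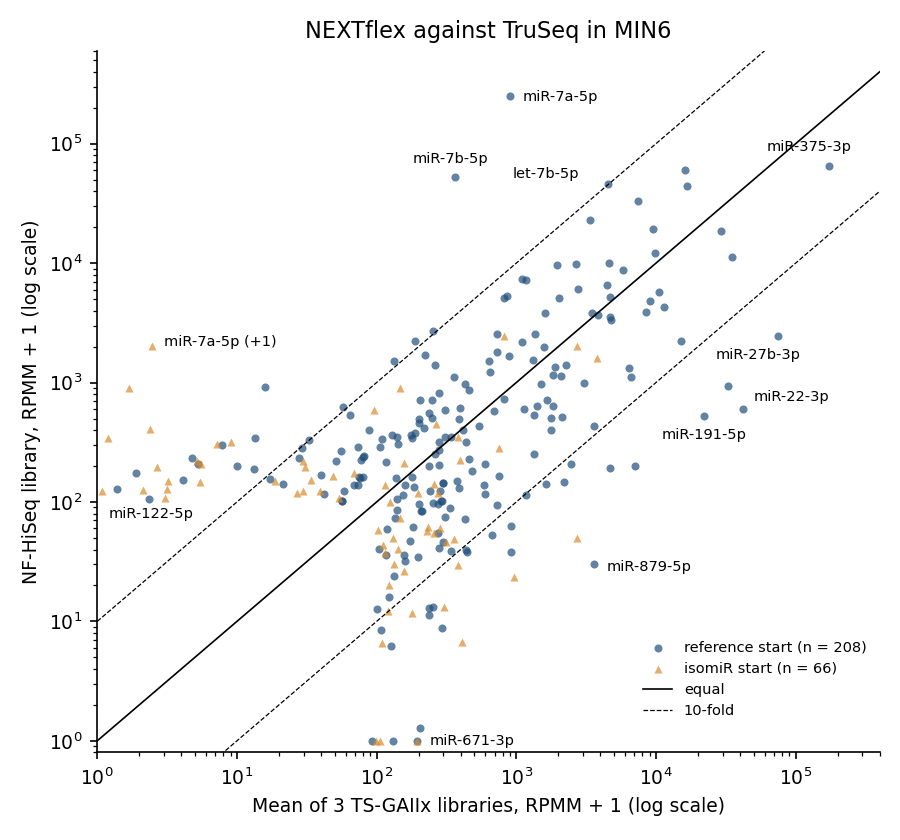
Abundance of the 274 highly expressed starts in NF-HiSeq (vertical axis) against the mean of the 3 TS-GAIIx libraries (horizontal axis), both as RPMM + 1 on log scales. Circles are reference starts and triangles isomiR starts. The solid line marks equal values and the dashed lines 10-fold differences, beyond which 34 starts lie above and 36 below.

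The order of abundance changed at the top of the profile. miR-375-3p, the most abundant miRNA of TS-GAIIx, was at 163124, 186331 and 174391 RPMM in libraries 1 to 3 and at 64950.1 RPMM in NF-HiSeq, where it ranked second. First in NF-HiSeq was miR-7a-5p, which held 24.9% of all mapped reads there and ranked 66 by the mean of TS-GAIIx. miR-27b-3p and miR-22-3p, ranks 2 and 3 in TS-GAIIx, ranked 37 and 73 in NF-HiSeq. The lists of the 10 most abundant miRNAs shared 4, miR-375-3p, let-7c-5p, let-7f-5p and miR-182-5p. The 6 found only in that of NF-HiSeq were miR-7a-5p, miR-7b-5p and 4 let-7 miRNAs (let-7a, b, g and i), and the 6 found only in that of TS-GAIIx were miR-27b-3p, miR-22-3p, miR-26a-5p, miR-127-3p, miR-191-5p and miR-141-3p. The reads on named miRNAs were also more concentrated, since 4 miRNAs held 50% of them in NF-HiSeq and 5 in each TS-GAIIx library, while 32 against 43 to 44 held 90%. Across the tested starts the squared Pearson correlation of RPMM between NF-HiSeq and a TS-GAIIx library averaged 0.0583 over the 3 pairs, against 0.997 between TS-GAIIx libraries. The first value was 0.325 with whole-number counts alone and 0.0106 without miR-375-3p. On the scale of log10(RPMM + 1) these averages were 0.207 and 0.997. The points of such a correlation are miRNAs of the same libraries, not independent replicates.

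The miR-7 family differed most among abundant miRNAs. miR-7a-5p, a miRNA of neuroendocrine cells that restrains insulin secretion, was at 1015, 782 and 915 RPMM in TS-GAIIx and 248933 RPMM in NF-HiSeq, a 275-fold difference (log2 fold change 8.11, standard error 0.131, adjusted p = 1.37e-09, edgeR). miR-7b-5p, which has the same seed, was at 379.7, 338 and 366 RPMM and 52492 RPMM, 145-fold higher in NF-HiSeq (adjusted p = 2.36e-10 from the same test). No TS-GAIIx library came near NF-HiSeq for either. The passenger strand of one of the precursors of miR-7a, miR-7a-2-3p, went the other way, with 295, 297 and 298 RPMM in TS-GAIIx and 143 RPMM in NF-HiSeq. In the v1.5 libraries miR-7a-5p averaged 4664 RPMM and miR-7b-5p 1724 RPMM. Together the family took 30.2% of mapped reads in NF-HiSeq and at most 0.169% in a TS-GAIIx library.

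All 9 tested members of the let-7 family, which share the seed GAGGUAG, were called higher in NF-HiSeq, where 45.6% of all starts were. With fractional counts left out, let-7a-5p lost its call and its sign turned. Their differences were not equal. let-7b-5p was at 4826, 4439 and 4389 RPMM in TS-GAIIx and 45901 RPMM in NF-HiSeq (10.1-fold, adjusted p = 2.24e-09 from edgeR). let-7g-5p was 6.77-fold, let-7a-5p 4.44-fold, let-7c-5p 3.70-fold and let-7d-5p 3.62-fold higher. let-7f-5p, miR-98-5p, let-7i-5p and let-7e-5p were 2.64-, 2.54-, 2.01- and 1.89-fold higher, the last with 1376, 1326 and 1362 RPMM in TS-GAIIx against 2558 RPMM. The order within the family therefore changed, with let-7f-5p and let-7c-5p first in TS-GAIIx and let-7c-5p and let-7b-5p first in NF-HiSeq. The family summed to 6.35, 6.40 and 6.42% of mapped reads in TS-GAIIx and 24.3% in NF-HiSeq. let-7a, let-7c and let-7f have more than 1 precursor, and reads that fit several places carry fractional counts, which were summed over the copies here. When only whole-number counts were kept, let-7a-5p went to the other side, with a log2 fold change of -1.57 (standard error 1.29), which was not called.

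Of 25 miRNAs listed for their known roles in beta cells, 15 were called higher and 10 lower in NF-HiSeq, where 45.6% and 49.6% of all starts were, with a median log2 ratio of 0.64 beside -0.18 over all starts tested. 4 were more than 10-fold higher, namely miR-7a-5p, miR-7b-5p, let-7b-5p and miR-34a-5p, and 1 more than 10-fold lower, miR-27b-3p, beside 12.4% and 13.1% of all starts. miR-375-3p itself was 2.69-fold lower (adjusted p = 1.79e-06 from edgeR). miR-34a-5p, a target of p53 that is linked to beta cell death, was at 30.6, 29.6 and 35.6 RPMM in TS-GAIIx and 331 RPMM in NF-HiSeq (10.1-fold). miR-9-5p, which acts on the secretory machinery, rose from 208, 230.4 and 221 to 1688 RPMM, and miR-24-3p from 799.6, 824 and 811 to 5131 RPMM. With whole-number counts alone miR-9-5p turned to -2.10 on the log2 scale. As deposited, each of these 3 lay far above every TS-GAIIx library, but miR-34a-5p met the limit only in NF-HiSeq and so had to be higher there. miR-184-3p, a miRNA of beta cells that responds to glucose, fell from 545, 622 and 614 to 206 RPMM. miR-148a-3p, which is linked to insulin transcription, was 2.65-fold lower. miR-21-5p and miR-146a-5p, both induced by cytokines, were 2.39-fold and 1.56-fold higher, miR-129-5p 1.89-fold higher, miR-16-5p and miR-15a-5p 2.18-fold and 2.81-fold higher, while miR-124-3p and miR-26a-5p were 1.64-fold and 3.13-fold lower. Of the 10 called lower, miR-124-3p and miR-96-5p met the limit only in TS-GAIIx and so had to be lower.

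Levels were also expressed relative to miR-30e-5p, which was itself 1.82-fold lower in NF-HiSeq, so that every value relative to it is raised there. miR-27b-3p was at 7.75, 6.55 and 7.27 times that miRNA in TS-GAIIx and at 0.426 times in NF-HiSeq. The corresponding values of miR-24-3p were 0.0851, 0.0746 and 0.0744 in TS-GAIIx and 0.897 in NF-HiSeq. miR-375-3p was at 16.7 ± 0.692 times (SD, n = 3) and 11.3 times. For miR-27b-3p and miR-24-3p the order thus turned: in TS-GAIIx miR-27b-3p was the more abundant of the pair in every library, and in NF-HiSeq miR-24-3p was. miR-29a-3p was at 0.458, 0.398 and 0.422 and 1.15, and miR-129-5p at 0.0933, 0.0808 and 0.0798 and 0.291 times miR-30e-5p.

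**Figure D2:**
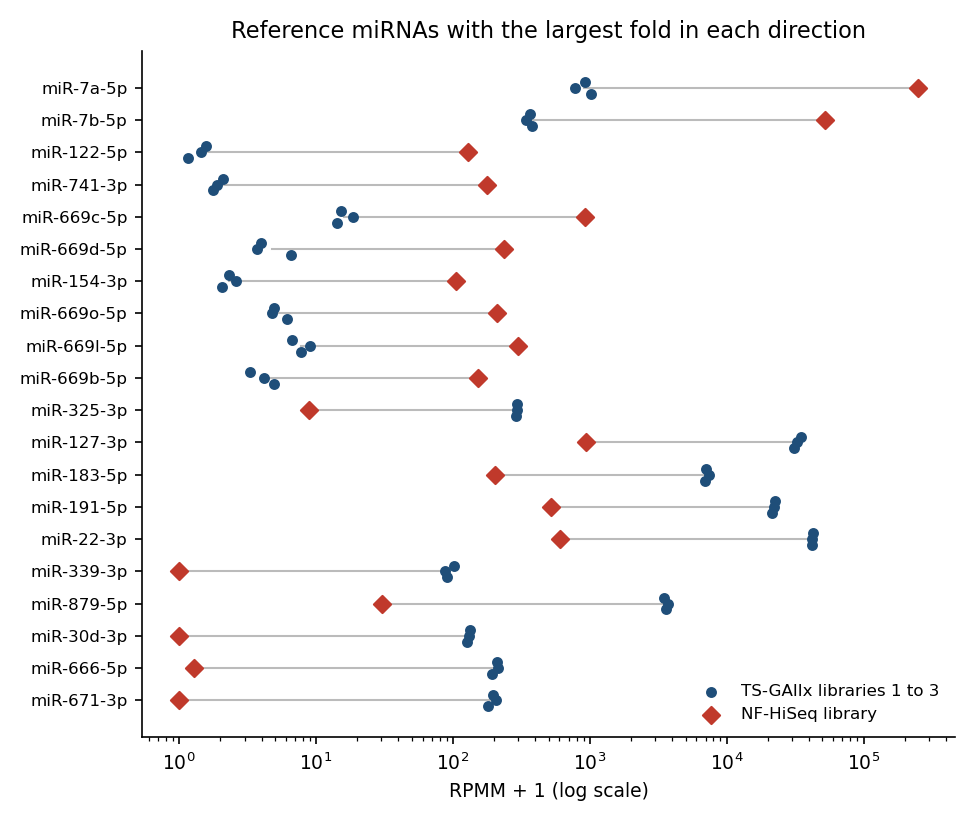
The 10 reference miRNAs with the largest fold in each direction, as RPMM + 1 on a log scale. Each blue circle is 1 of the 3 TS-GAIIx libraries and the red diamond is NF-HiSeq. The blue circles of a miRNA lie close together beside the distance to the diamond, and miR-671-3p, miR-30d-3p and miR-339-3p are listed at 0 in NF-HiSeq.

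Of the 10 most abundant miRNAs of TS-GAIIx, 4 were more than 30-fold lower in NF-HiSeq. miR-22-3p, which acts on histone deacetylase and tumor suppressor transcripts, was at 42226, 42103 and 42599.9 RPMM in TS-GAIIx and 599 RPMM in NF-HiSeq (70.5-fold, log2 fold change -6.14, standard error 0.0894, adjusted p = 1.37e-09, edgeR). miR-127-3p, an imprinted miRNA antisense to Rtl1, was at 30878, 32382 and 34595 RPMM and 935 RPMM (34.9-fold lower), and miR-191-5p at 21399.6, 22005 and 22549 RPMM and 523 RPMM (42.0-fold lower). In the v1.5 libraries these 3 averaged 3233, 5889.7 and 4528 RPMM, between the values of the other preparations. miR-27b-3p, a regulator of lipid metabolism, was at 72822, 72256 and 79269.7 RPMM in TS-GAIIx and 2439 RPMM in NF-HiSeq (30.7-fold lower, adjusted p = 2.75e-09 from edgeR). miR-183-5p, 35.3-fold lower at 201 RPMM in NF-HiSeq, comes from the same primary transcript as miR-182-5p, which was 1.56-fold lower at 18539.9 RPMM. miR-879-5p stood at 3609, 3720.0 and 3473 RPMM in TS-GAIIx and 29.1 RPMM in NF-HiSeq (119.6-fold lower). The fewest reads among these in NF-HiSeq were the 744 of miR-879-5p, so counting error is small beside the differences.

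In all, 6 starts of the highly expressed set were listed at 0 in NF-HiSeq, where 3 reads would be 0.117 RPMM. miR-671-3p was at 179.5, 205 and 196 RPMM in TS-GAIIx, at least 1649-fold lower in NF-HiSeq against that floor. miR-30d-3p, at 126, 131 and 131 RPMM, was at least 1104-fold lower, and miR-339-3p, at 89.5, 86.8 and 101 RPMM, at least 787-fold lower. The others were isomiRs, miR-22-3p (+1) at 198, 195 and 192 RPMM in TS-GAIIx, miR-27b-3p (+3) at 123, 102 and 87.5 RPMM and miR-376a-5p (+1) at 96.3, 101 and 98.6 RPMM. They were at least 1663-, 887- and 839.5-fold lower. miR-666-5p had 7 reads in NF-HiSeq, 0.274 RPMM with a 95% counting interval of 0.110 to 0.564, against 191, 211 and 209 RPMM in TS-GAIIx. These intervals and floors cover counting error only, because reads without molecular identifiers need not be independent molecules. NF-HiSeq also held 102 reads per distinct alignment and the TS-GAIIx libraries 12.2 to 15.2, and the part of this in the zeros was not tested. No start of at least 100 RPMM in NF-HiSeq was listed at 0 in all 3 TS-GAIIx libraries.

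Low miRNAs of TS-GAIIx that were far more abundant in NF-HiSeq came in groups from shared loci. All 6 tested miRNAs of the imprinted cluster in an intron of Sfmbt2 were more than 10-fold higher in NF-HiSeq, where 12.4% of all starts were. Their median log2 ratio was 5.29. miR-669c-5p was at 13.2, 17.7 and 14.1 RPMM in TS-GAIIx and 920.1 RPMM in NF-HiSeq (57.5-fold). The others, miR-669d-5p, miR-669o-5p, miR-669l-5p, miR-669b-5p and miR-467e-5p, were 19.8- to 49.4-fold higher. Members of this cluster resemble each other closely, so reads may be shared among them. All 7 tested miRNAs of an X-linked cluster known from the testis were called higher, where 45.6% of all starts were. miR-741-3p rose from 0.752, 0.876 and 1.08 to 175 RPMM, where TS-GAIIx held 5, 6 and 13 reads, and miR-465b-5p from 13.4, 12.3 and 11.7 to 339.6 RPMM, the others by 3.94- to 9.79-fold. Because these low miRNAs entered the set only through NF-HiSeq, their being higher there follows in part from the limit. The v1.5 means were 23.9 RPMM for miR-669c-5p and 53.9 RPMM for miR-741-3p.

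The imprinted Dlk1-Dio3 locus on chromosome 12 gave the opposite picture. Of its 29 tested miRNAs, 22 were called lower in NF-HiSeq, 6 higher and 1 was not called, beside 49.6% lower among all starts. The median log2 ratio was -1.92. 9 were more than 10-fold lower, where 13.1% of all starts were, but 5 of these (miR-666-5p, miR-666-3p, miR-667-3p, miR-300-3p and miR-136-5p) met the limit only in TS-GAIIx and so had to be lower in NF-HiSeq. The same held for members lower by less, such as miR-409-3p at 329, 342 and 332 RPMM against 87.5 RPMM. The count of 22 was thus fixed in part by the limit. miR-434-3p was at 4799.9, 4555 and 4809.9 RPMM in TS-GAIIx and 190.0 RPMM in NF-HiSeq (24.7-fold lower), and miR-381-3p at 2195, 2076 and 2283 and 146 RPMM (14.8-fold lower). Against this, miR-379-5p rose from 208, 189 and 169 to 2208 RPMM and miR-154-3p from 1.05, 1.61 and 1.33 to 104 RPMM. Both lay above every TS-GAIIx library, but miR-154-3p met the limit only in NF-HiSeq and so had to. The locus as a whole summed to 5.42, 5.52 and 5.76% of mapped reads in TS-GAIIx and 0.775% in NF-HiSeq.

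In several other families the members went in both directions. In the miR-200 family, which restrains the ZEB repressors of the epithelial state, miR-200c-3p rose from 1968, 2027 and 1832 to 9659.6 RPMM and miR-200a-3p was 1.91-fold higher, whereas miR-141-3p fell from 14761, 14967 and 15768 to 2247 RPMM, miR-429-3p was 2.91-fold and miR-200b-3p 1.41-fold lower. miR-200c and miR-141 come from 1 transcript, and miR-141 was the more abundant in every TS-GAIIx library and miR-200c in NF-HiSeq. In the miR-29 family, which silences collagens, miR-29a-3p was 1.48-fold and miR-29b-3p 1.91-fold higher and miR-29c-3p 2.24-fold lower. With whole-number counts alone miR-29b-3p turned to -2.67 on the log2 scale (standard error 1.85), which was not called. In the miR-30 family miR-30d-5p was 1.24-fold higher, miR-30a-5p, miR-30e-5p and miR-30b-5p were 1.88-, 1.82- and 1.60-fold lower, and miR-30c-5p was at 4411, 4858 and 4827 RPMM against 5194 RPMM (adjusted p = 0.0875 from edgeR). The seed group of miR-148 and miR-152 had the widest span, 4.80 on the log2 scale, among the 9 seeds with at least 3 tested members of known RefSeq sequence. miR-152-3p was 10.5-fold higher in it and miR-148a-3p 2.65-fold lower.

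MiRNAs with 1 seed largely share targets, so the RPMM of each seed were also summed over the tested members whose sequence RefSeq held. Tested members without one, such as miR-30b-5p and miR-30d-5p, are not in these sums and spans. The sum over the seed GAGGUAG of let-7 was 63929.8 RPMM in the mean of TS-GAIIx and 242757 RPMM in NF-HiSeq. That over the seed AAAGUGC of the miR-17 group was 2049.9 and 12742 RPMM, with miR-20a-5p 14.3-fold, miR-93-5p 6.16-fold and miR-106b-5p 6.15-fold higher in NF-HiSeq. The miR-15/16 seed AGCAGCA was the most even of the 9, with a span of 0.37 on the log2 scale and sums of 5153 and 11347 RPMM over 3 members. The log2 ratios of all 5 tested in the miR-15/16 list ran from 1.12 to 1.59. Sums for AGUGCAA (miR-130 and miR-301) went from 8219.6 to 3390.4 RPMM. The counts of the other lists stand beside 45.6% of all starts called higher and 49.6% called lower. All 3 members of the miR-183, miR-96 and miR-182 cluster were called lower, and 4 of 5 of miR-23/27/24 were, miR-24-3p being the exception. Of 21 neuronal and endocrine miRNAs, 6 were called higher and 15 lower. Of 7 miRNAs of miR-17~92 and its relatives, 5 were called higher and 1 lower, of miR-15/16 all 5 higher, of miR-148 and miR-152 1 higher and 2 lower, and of miR-130 and miR-301 1 higher and 3 lower. These counts were fixed in part by the limit. miR-96-5p, miR-27a-3p and miR-92a-3p, for example, met it only in TS-GAIIx and so had to be lower in NF-HiSeq. Conversely, miR-20a-5p and miR-93-3p met it only in NF-HiSeq and so had to be higher there. The lists of miR-26, of miR-10, miR-99 and miR-125, of miR-181, of miR-103 and miR-107, and of miR-101 had median log2 ratios of -0.27, -0.39, 0.61, 1.67 and 0.74, each over 2 or 3 members.

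**Figure D3:**
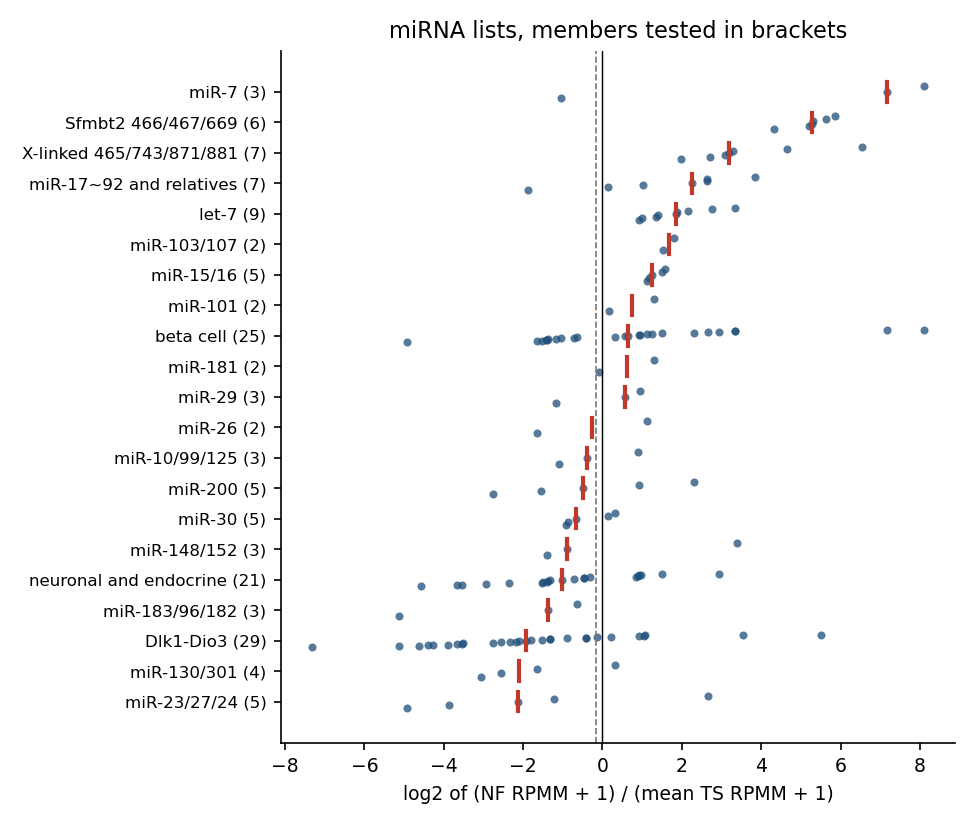
The log2 ratio of NF-HiSeq to the mean of TS-GAIIx (1 RPMM added to both) for each tested member of 21 miRNA lists. Each point is a miRNA, the red bar is the median of its list, and the dashed line is the median over all 274 starts, -0.18. The Sfmbt2, X-linked and let-7 lists lie wholly above 0, while most of the Dlk1-Dio3 list lies below it. Members of the Sfmbt2 and X-linked lists met the limit only in NF-HiSeq and so had to lie above 0.

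The ratio of the 2 arms of a hairpin compares miRNAs of 1 precursor, so that it does not depend on scaling. In all 44 hairpins with both arms named and 1 of them highly expressed, the ratio in NF-HiSeq lay outside the range of the 3 TS-GAIIx libraries. It moved by a median of 2.01 on the log2 scale, where the range of TS-GAIIx had a median of 0.185. In 11 of them the more abundant arm was another one in NF-HiSeq than in every TS-GAIIx library. For miR-325, the 3p arm was at 289, 293 and 293 RPMM and the 5p arm at 62.6, 62.8 and 65.0 RPMM in TS-GAIIx, while NF-HiSeq had 7.86 and 532 RPMM. miR-872 had 1149, 1165 and 1192 RPMM of the 3p arm and 798, 839 and 822 RPMM of the 5p arm in TS-GAIIx, against 112 and 729.6 RPMM. In both, the 3p arm dominated in TS-GAIIx and the 5p arm in NF-HiSeq. The same turn was seen for miR-671, with 335 RPMM of the 5p arm and none of the 3p arm in NF-HiSeq, for miR-339, whose 3p arm was listed at 0, and for miR-329 and miR-384, whose log2 ratios of 5p to 3p went from -0.22 to 3.26 and from -0.45 to 1.44. The turn was toward the 3p arm for miR-126, from 3.17 to -2.16, and for miR-369, from 0.25 to -2.12. Some hairpins entered only through an arm that was high in 1 preparation. miR-126-5p and miR-339-3p met the limit only in TS-GAIIx and miR-329-5p only in NF-HiSeq, so their turn follows in part from the limit. In miR-325, miR-671 and miR-369 at least 1 arm met it in 1 preparation alone. Both arms of miR-872 and miR-384 met it in both.

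The preparations also differed in the 5′ ends of a miRNA, which set its seed. The reference start held a median of 98.6, 98.8 and 98.7% of the reads within 5 nt of it in TS-GAIIx and 98.3% in NF-HiSeq, over 188 miRNAs with at least 200 reads in each library. For 41 of them the share moved by more than 5 percentage points from the mean of TS-GAIIx. The 5 described next, chosen after their values were seen, are among the 6 with the widest change. For miR-101b-3p it was 33.8, 34.3 and 32.1% in TS-GAIIx and 67.8% in NF-HiSeq (95% Wilson interval 67.1% to 68.5%), and the start 1 base upstream was the major one in each TS-GAIIx library but not in NF-HiSeq. miR-136-3p changed in the same way, from 21.2, 20.8 and 19.7% to 58.3%, as did miR-101a-3p, from 29.4, 30.1 and 27.9% to 55.3%. For miR-140-3p the share of the start 1 base downstream was 72.0, 69.3 and 70.1% in TS-GAIIx and 49.4% in NF-HiSeq. miR-383-5p went the other way: its reference start held 93.1, 87.4 and 89.6% in TS-GAIIx and 50.8% in NF-HiSeq, where the start 1 base upstream held 49.2%. In none of the 5 did NF-HiSeq lie within the range of TS-GAIIx.

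Among isomiRs the largest differences shown here had the direction of the parent miRNAs but not their size. For example, let-7b-5p (+1) was 173-fold higher in NF-HiSeq and let-7b-5p itself 10.1-fold. The start 1 base downstream held 0.017, 0.039 and 0.035% of let-7b-5p reads in TS-GAIIx and 0.88% in NF-HiSeq. miR-7a-5p (+1) was at 1.505, 1.36 and 1.49 RPMM in TS-GAIIx and 2022 RPMM in NF-HiSeq (825-fold), and miR-7a-5p (-1) at 0.301, 1.17 and 0.581 and 894 RPMM. The isomiRs (+1) and (-1) of miR-7b-5p reached 343 and 122 RPMM in NF-HiSeq, and let-7b-5p (+1) 410.1 RPMM, all at under 2 RPMM in every TS-GAIIx library. On the other side, miR-191-5p (+1) fell from 397, 418 and 412 to 5.71 RPMM and miR-183-5p (+1) from 2571, 2757 and 2816 to 48.6 RPMM. The isomiRs named as higher met the limit only in NF-HiSeq, and those named as lower only in TS-GAIIx. Each thus had to differ in its direction to some extent. These isomiRs have seeds of their own, shifted by 1 base from those shown above.

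Fewer forms of a read were seen in NF-HiSeq. A form is an alignment of a given length and edit string at 1 start. When each of 119 single-copy reference miRNAs was thinned to 1000 reads per library, the median number of forms was 30.4, 31.1 and 25.4 in TS-GAIIx and 23.2 in NF-HiSeq. 65 miRNAs had fewer forms in NF-HiSeq than in every TS-GAIIx library and 17 had more. Over the whole libraries there were 12.6, 12.2 and 15.2 reads per distinct alignment in TS-GAIIx and 102 in NF-HiSeq, and the part of this in the results above was not tested. Read lengths were close, with a median over these miRNAs of the mean exact length of 21.7, 21.7 and 21.7 nt in TS-GAIIx and 21.9 nt in NF-HiSeq. A single mismatching U at the 3′ end, as an untemplated uridine would give, was found in a median of 2.81, 2.80 and 2.68% of reads in TS-GAIIx and 4.53% in NF-HiSeq. For A the median was 1.37% in the deepest TS-GAIIx library and 1.67% in NF-HiSeq. Neither moved one way, since for U NF-HiSeq was above every TS-GAIIx library in 55 miRNAs and below in 56, and for A in 53 and 58.

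The bases of the mature miRNA went with the direction of the difference. RefSeq held the sequence of 173 of the 208 reference miRNAs. By last base, the median log2 ratio of NF-HiSeq to TS-GAIIx was -1.60 for C (n = 28), 0.21 for A (n = 31), 0.45 for G (n = 42) and -0.06 for U (n = 72). By first base it was -1.71 for G (n = 12), -0.39 for C, -0.12 for A and -0.01 for U. MiRNAs of at most 40% GC had a median of 0.61 (n = 39) and those over 50% one of -0.57 (n = 54). Cytosine near the 3′ end was looked at after these values were seen. The 46 miRNAs with no C among the last 6 bases had a median of 1.32, with 32 higher and 14 lower in NF-HiSeq, and the 24 with at least 3 had a median of -1.74, with 3 higher and 21 lower. In the sequences above, miR-7a-5p, miR-7b-5p, let-7b-5p and miR-741-3p have no C there, miR-27b-3p, miR-191-5p and miR-183-5p have 2, miR-27a-3p and miR-434-3p have 3, and miR-671-3p has 4. miR-22-3p, with 1, and miR-127-3p, with 1, were among the lowest all the same. Pearson's r of the log2 ratio with this number was -0.44 over the 173 miRNAs, beside -0.26 for the first 6 bases, -0.28 for GC and -0.42 for the percentage of C over the whole miRNA, close to the value of the last bases. The miRNAs share their libraries, and related miRNAs share bases, so these values are descriptions.

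**Figure D4:**
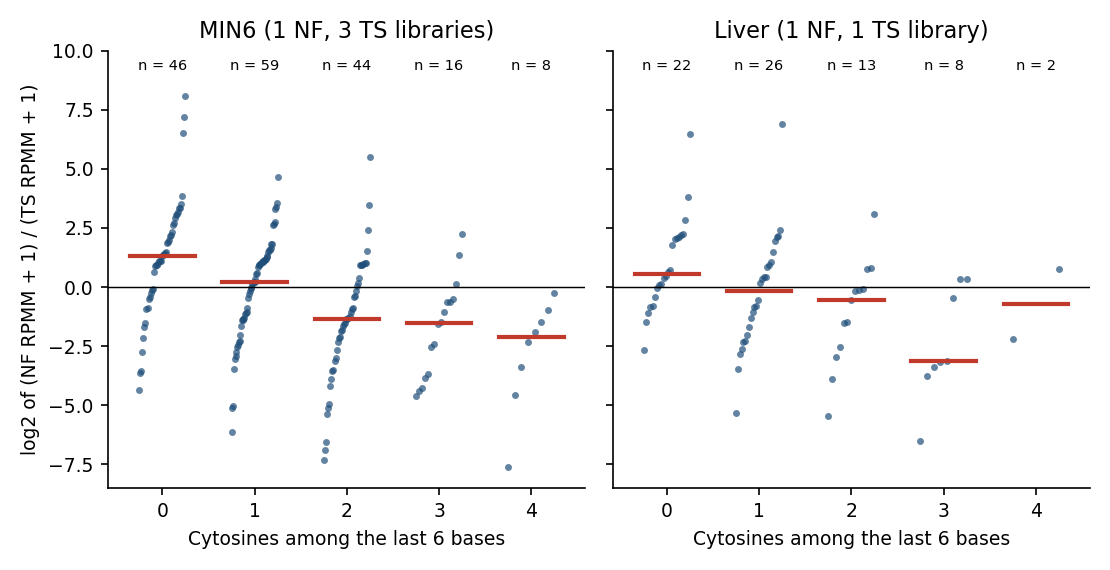
The log2 ratio of NF to TS against the number of cytosines among the last 6 bases of the mature miRNA, in MIN6 (left, 173 reference miRNAs) and in the liver pair (right, the 71 of them at 100 RPMM or more in a liver library). Each point is a miRNA and the red bars are medians. In MIN6 the medians fall from 1.32 with none to -2.12 with 4.

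The liver pair shares no library with the MIN6 comparison, and its NEXTflex and TruSeq libraries were made from the same RNA and sequenced on the same platform, with 1 library each and hence no test. Of the 86 tested reference miRNAs at 100 RPMM or more in a liver library, 69 (80.2%) differed in the same direction in both, 37 higher and 32 lower with NEXTflex. All 13 that differed by more than 10-fold in MIN6 had the same direction in liver, and 7 of them were over 10-fold there too. Pearson's r between the log2 ratios was 0.81 and Spearman's rho 0.83 across these miRNAs, which are not independent of each other. miR-191-5p, 42.0-fold lower in MIN6, was at 8218 RPMM with TruSeq and 186 RPMM with NEXTflex in liver (43.9-fold). miR-127-3p was at 644 and 14.9 RPMM (40.6-fold), miR-27b-3p at 20209 and 1360.1 RPMM (14.8-fold) and miR-22-3p at 4003 and 365 RPMM (10.9-fold). miR-7a-5p was at 6.61 and 678 RPMM (89.2-fold higher) and let-7b-5p at 1800.3 and 25166 RPMM. These 6 were chosen for their differences in MIN6, and 17 of the 86 miRNAs went in opposite directions in MIN6 and liver. Sizes could differ widely within 1 direction. miR-29a-3p was 1.48-fold higher in MIN6 and 119-fold in liver, where TruSeq gave 0.546 RPMM for the miR-29 list as a whole. In MIN6 and liver miR-671-3p was 194- and 4.56-fold lower, and miR-541-5p 5.89- and 92.7-fold lower. The fall with cytosines near the 3′ end was also present in liver, with a median log2 ratio of 0.57 for none (n = 22) and -2.65 for at least 3 (n = 10).

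**Figure D5:**
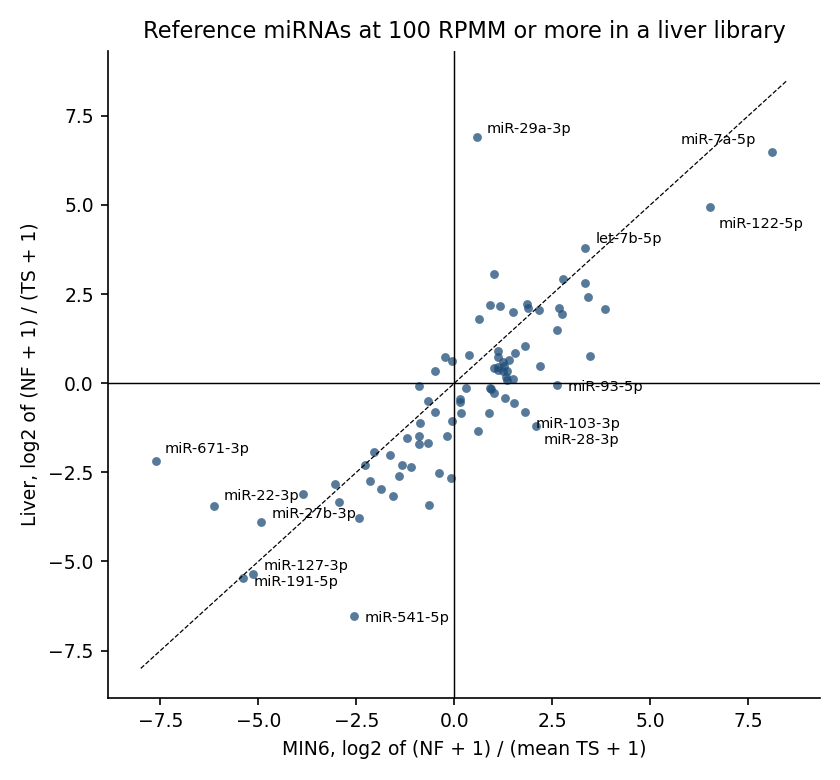
The log2 ratio of NEXTflex to TruSeq in liver (vertical axis, 1 library each) against that in MIN6 (horizontal axis), with 1 RPMM added, for 86 reference miRNAs. The dashed line marks equal ratios. 37 miRNAs lie in the upper right quadrant and 32 in the lower left.

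Markers of other cell types were checked, since NF-HiSeq came from other RNA. Of the MIN6 markers, miR-375-3p was first or second in all 4 libraries. miR-182-5p averaged 28998 RPMM in TS-GAIIx and was at 18539.9 RPMM in NF-HiSeq. The other markers were less abundant in at least 1 preparation. miR-7a-5p and miR-129-5p averaged 904 and 879 RPMM in TS-GAIIx, against 248933 and 1664 RPMM in NF-HiSeq. miR-184-3p averaged 594 RPMM in TS-GAIIx and was at 206 RPMM in NF-HiSeq. The 5 hepatocyte markers summed to 1425, 1458 and 1575 RPMM in TS-GAIIx and 1405 RPMM in NF-HiSeq. Within them miR-192-5p made up most in TS-GAIIx, whereas miR-802-5p was highest in NF-HiSeq, at 628 RPMM against 59.0, 58.6 and 51.2 RPMM. miR-122-5p, the defining hepatocyte miRNA, was at 0.150, 0.438 and 0.581 RPMM in TS-GAIIx (1, 3 and 7 reads) and 128 RPMM in NF-HiSeq, which is 0.0240% of its level in the NEXTflex liver library, 532452 RPMM. miR-122-3p was listed at 0 in all 4. The 4 blood markers summed to 41.2, 42.1 and 39.5 RPMM in TS-GAIIx and 21.6 RPMM in NF-HiSeq, and the 5 stromal and endothelial ones to 35.1, 30.6 and 29.7 and 84.0 RPMM. Of these, miR-142-5p, miR-150-5p and miR-145-5p were at 0 in NF-HiSeq, and miR-126-3p, below the limit for the test, was at 13.7, 11.4 and 12.6 RPMM in TS-GAIIx and 70.0 RPMM in NF-HiSeq. The part of other RNA in the differences above was not tested.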

How the data were processed

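Per the submitters' processing notes and the study's methods, reads were trimmed (cutadapt for TruSeq, 4 bases from each end for NEXTflex), aligned to mm9 with Bowtie and deposited as BED files. The fifth column holds the expected counts that the authors assigned to each alignment, fractional where a read fits several places. Here counts were summed by 5′ end, given as RPMM with the study's mapped reads, named by matching values in the study's list, and merged over copies of a mature miRNA. Deposited counts summed to 0.285 to 4.25% more than the mapped reads. Starts at 100 RPMM or more in at least 1 of the 4 libraries were tested on rounded counts by edgeR 4.0.16 (quasi-likelihood, Benjamini-Hochberg) in R 4.3.3, with DESeq2 1.42.0 as an alternative. Other values came from Python 3.11.15 with pandas 2.3.3, numpy 2.4.6, SciPy 1.17.1, statsmodels 0.14.6 and matplotlib 3.10.9. Tested on simulated counts, 198 of 200 changed starts were recovered, with 7 of 74 unchanged ones called. The simulation gave NF-HiSeq the same spread as TS-GAIIx, so it cannot show whether that assumption holds.

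The study calls the TS-GAIIx libraries biological replicates, but the labels name no separate cultures, so p-values measure only the spread between these samples, which may be technical. Named are the 10 largest reference folds each way, the 10 most abundant miRNAs of each preparation, the beta cell, let-7, miR-7, miR-200, miR-29 and miR-30 lists, 8 hairpins with a switched arm, the 5 largest isomiR folds each way and starts at 0. Named after their values were seen, or as examples of a list, seed or marker, are miR-20a-5p, miR-93-5p, miR-106b-5p, miR-126-3p, miR-152-3p, miR-340-3p, miR-379-5p, miR-381-3p, miR-423-5p, miR-434-3p, miR-455-5p, miR-465b-5p, miR-465c-5p, miR-467e-5p, miR-802-5p, miR-871-3p and the miRNAs of the paragraph on 5′ ends. miR-27a-3p, miR-92a-3p, miR-93-3p, miR-409-3p and miR-541-5p were also named after their values were seen. Members and lists were chosen with earlier results of these data known. RefSeq positions are of GRCm38.p6, not of mm9, and were not used on the files.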

Additional observations from a re-analysis of the deposited data

Results flagged for a closer look

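For 11 miRNAs at 100 RPMM or more in a liver library, NF was above every TS-GAIIx library in MIN6 but below TruSeq in the liver pair, and the log2 ratios of the tissues differed by at least 1. The difference, MIN6 minus liver, was 3.26 for miR-28-3p, 2.67 for miR-93-5p, 2.61 for miR-103-3p and 2.09 for miR-107-3p. It was 1.94 for miR-340-5p, 1.73 for miR-125b-5p, 1.71 for miR-181b-5p and 1.30 for miR-532-5p. It was 1.10 for miR-744-5p, 1.06 for miR-30a-3p and 1.01 for miR-101a-3p. miR-28-3p was at 35.2, 42.9 and 38.5 RPMM in TS-GAIIx and 167 RPMM in NF-HiSeq, and at 581 RPMM with TruSeq and 254 RPMM with NEXTflex in liver. miR-103-3p was at 751, 722 and 702 RPMM and 2546 RPMM in MIN6 and at 2088 and 1200.2 RPMM in liver. In MIN6, miR-28-3p, miR-107-3p and miR-30a-3p met the limit only in NF-HiSeq and so had to be higher there. The differences between the tissues were not tested, since liver has 1 library per preparation.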

How the results depend on the processing

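One NEXTflex library, other RNA and another platform limit every result, and no setting tried here bears on them. No paired analysis was possible because replicate 6 of NEXTflex shares no replicate number with TruSeq replicates 1 to 3. With a limit of 500 RPMM, where only 112 starts were tested, 95.5% of them were called, 26 differed by more than 10-fold (10 higher in NF-HiSeq and 16 lower, a share of 38.5% higher beside 48.6%) and 42 by more than 5-fold. More than 10-fold differences numbered 45 with all starts of an arm summed and 45 with reference starts only. The squared correlation was 0.0596 with a limit of 50 RPMM, 0.0406 with 500 RPMM, 0.0604 with none, 0.0896 with copies listed separately, 0.0594 with all starts of an arm summed and 0.0547 with reference starts only. It was 0.0487 with exact alignments only, 0.325 with whole-number counts only, 0.207 on the log10 scale and 0.0106 without miR-375-3p, the most abundant miRNA of TruSeq. Leaving out each TruSeq replicate in turn gave 256 to 263 calls, 67 to 70 differences over 10-fold and a squared correlation of 0.0579 to 0.0588. With whole-number counts only, the log2 fold change turned to -1.57 for let-7a-5p, -2.67 for miR-29b-3p and -2.10 for miR-9-5p, miRNAs with several copies, and with TMM factors to 0.011 for miR-872-5p. Those of let-7a-5p, miR-29b-3p and miR-872-5p were not called, with standard errors of 1.29, 1.85 and 0.063. DESeq2's test called 259. The median log2 ratio of all starts moved by 0.18 with TMM factors, 0.10 with DESeq2's size factors, -0.26 when scaled to reads on named starts, 0.35 with copies listed separately and -0.22 with whole-number counts only. Of 1206 refits of 79 named starts, 1177 kept direction and side of the threshold, 21 lost the call, 4 gained it and 4 turned; the causes were not tested.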
